A study of Mus musculus with 12 samples.

Results

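Chromatin modifier and remodeller genes were examined in the striatum of mice in which TIF-IA was deleted with a D1R-Cre driver, at 9 and 13 weeks of age. Genes were chosen by symbol alone: those beginning with Hdac, Sirt, Kat, Kdm, Dnmt or Chd and then a number, those beginning with Smarc, and Ezh1 and Ezh2. The rule found 55 of the 12393 genes with a single symbol on the array, in 8 families. These were 8 Hdac, 5 Sirt, 5 Kat, 13 Kdm, 2 Ezh, 4 Dnmt, 12 Smarc and 6 Chd genes. Where a gene had several probe sets, the brightest on average over the 12 arrays stood for it, and the 55 genes have 90 in all. A gene was tested where its log2 value lay above the array's 40th percentile in at least 3 arrays, which kept 49 of the 55. The other 6, Hdac7, Hdac9, Kdm5c, Dnmt3b, Dnmt3l and Chd7, had values between 2.15 and 3.97 on all arrays and were not tested.

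The mice were C57Bl/6, with 1 array per mouse and 3 mice in each of 4 groups: controls at 9 weeks, TIF-IAD1RCre mutants at 9 weeks, controls at 13 weeks and mutants at 13 weeks. The labels call the controls only control and do not say which alleles they carry. TIF-IA is the product of Rrn3 and serves RNA polymerase I at the start of ribosomal RNA synthesis. The D1R driver is meant for cells with the D1 dopamine receptor, so the other cells of the tissue are not its target. The number of arrays limits the precision, and the values are GCRMA signals on a log2 scale, on which a difference of 1 is a doubling.

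DNA in the nucleus is wrapped around histones, and the genes examined here encode enzymes that change this packaging or proteins that work with them. Acetyltransferases (Kat) add acetyl groups to histones and other proteins, and deacetylases (Hdac, and the NAD-dependent sirtuins) remove them. Ezh1 and Ezh2 are the alternative catalytic subunits of Polycomb repressive complex PRC2. Kdm genes encode lysine demethylases, and Dnmt genes other than Dnmt3l encode DNA methyltransferases. Smarc and Chd genes encode ATP-driven remodellers and their partners, among them the BAF (SWI/SNF) complex, whose subunits are exchanged as neurons mature.

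Across the series, Rrn3 was 7.97 to 8.20 in controls and 6.90 to 6.96 in mutants at 9 weeks, and 7.54 to 8.04 against 7.18 to 7.72 at 13 weeks, where the difference did not pass (limma adjusted p = 0.128). The labels name medium spiny neurons as the cell type, but markers of glia were also well above the filter, so the arrays measured the tissue. At 13 weeks the 9 medium spiny neuron markers measured all fell (mean level 11.87 to 12.36 in controls and 9.44 to 10.34 in mutants). All 8 astrocyte markers (8.71 to 8.77 against 10.91 to 11.14), all 10 microglia markers (8.95 to 9.35 against 11.71 to 12.09), 5 of 6 proliferation markers (4.97 to 5.41 against 6.77 to 6.96) and all 4 interferon-induced genes (2.30 to 2.31 against 8.34 to 9.33) rose. Of the precursor markers 3 of 4 rose, as did 3 of 3 tested endothelial markers, and 0 of 5 oligodendrocyte markers passed. At 9 weeks 1 of the 9 neuron markers fell and 0 of the astrocyte, microglia, proliferation and interferon markers passed. In bulk tissue, fewer cells of a type and less RNA per cell cannot be told apart, and the part of these shifts in the differences below was not tested.

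Some features of the arrays bear on the members. Control mouse 3 at 13 weeks stood apart: it lay over 1 log2 from the mean of the other 2 controls of its age in 14 of the 49 members (28.6%, against 20.6% of all genes tested), and was the highest or lowest of the 6 controls in 36 (73.5%, against 67.6%). Sex, read from Xist and Eif2s3y because the labels do not give it, was unbalanced, with 1 female in each of the other groups but 3 of 3 mutants at 13 weeks. Mutant mouse 3 at 9 weeks and control mouse 1 at 13 weeks had high Slc17a6 (7.99 and 7.08) and Calb2 (7.74 and 8.0), which were at most 5.01 elsewhere. Control mouse 3 was the only female control at 13 weeks (Xist 8.59). Fits at 13 weeks without it compare 3 female mutants with 2 male controls, so sex and genotype cannot be told apart in them. Where leaving out control mouse 3 ended a call at 13 weeks or moved a called difference by over 1.5 times, the value without it is given.

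At 13 weeks, 24 of the 49 members passed the test, 18 lower and 6 higher in mutants. This is 49% of them, against a background of 45.3% of the 8256 genes tested (limma with Benjamini-Hochberg adjustment over all genes, adjusted p under 0.05), so the number of calls was near the background. By direction, 36.7% of members fell against 21.9% of all genes, and 12.2% rose against 23.4%. The median member differed by -0.41 and the median gene by 0.003. Leaving out control mouse 1 at 13 weeks moved the median member to -0.27. The 3 mutants lay below the 3 controls in 22 members and above them in 7, against 26.8% and 27.8% of all genes. No test of the list was made. Median centring of the arrays moved the median gene to -0.16 and the median member to -0.57. It gave 21 falls and 4 rises among the members, with 47.8% of all genes called in either direction. The shares of all genes by direction were not taken under median centring.

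**Figure D1:**
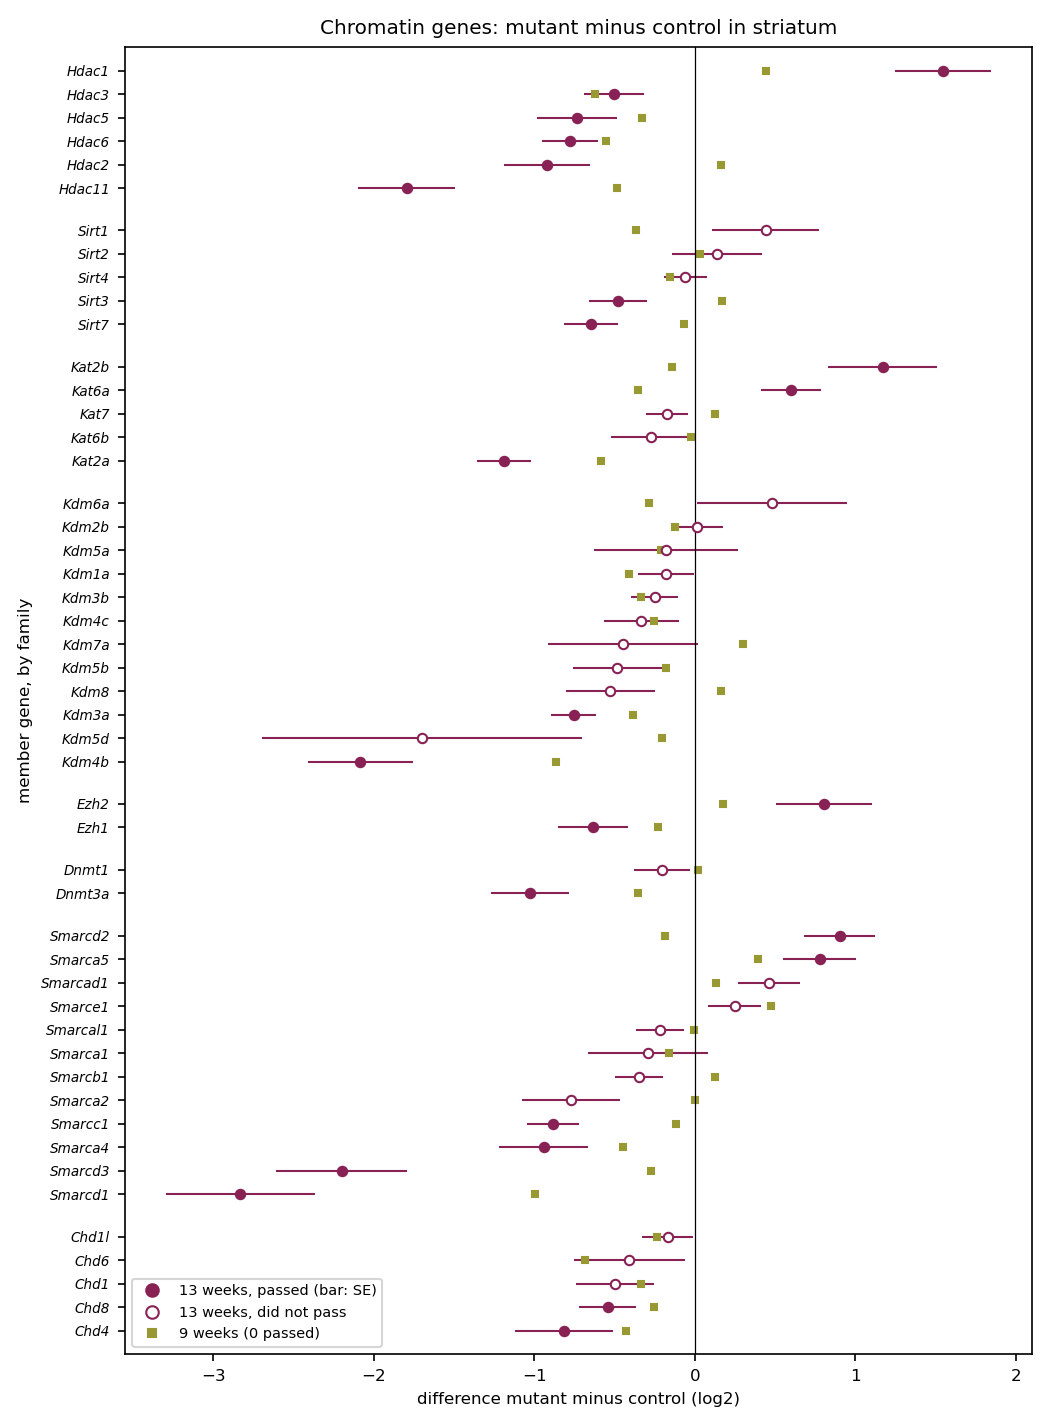
Difference of mutant minus control (log2, horizontal axis) for the 49 tested members, grouped by family (vertical axis), with 13 weeks as circles (bar: SE; filled where passed) and 9 weeks as squares. At 13 weeks differences ran from -2.83 (Smarcd1) to 1.54 (Hdac1), and 0 members passed at 9 weeks.

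At 9 weeks 0 of the 49 members passed limma's test, against a background of 5% (2.02% higher and 2.98% lower). At an unadjusted p under 0.05 there were 8 (16.3%, against 21.4% of all genes). Of these, 7 were lower in mutants, namely Hdac3, Hdac6, Kat2a, Kdm1a, Kdm3a, Kdm3b and Kdm4b, and Smarce1 was higher. The smallest adjusted p was that of Kat2a (0.065). Mutants lay below controls in 13 members and above in 4, against 20.6% and 15% of all genes. The count of 0 depends on the spread shared by the 4 groups: without control mouse 3 at 13 weeks, which is no part of this comparison, 10 of the 49 members passed, against 16.4% of all genes. They were Hdac3, Hdac6, Kat2a, Kdm1a, Kdm3a, Kdm4b, Smarca4, Smarcd1, Smarce1 and Chd6. With only the groups compared 4 of the 49 passed (Kat2a, Kdm4b, Smarcd1 and Chd6), against 12.7% of all genes.

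Among the deacetylases all 6 tested Hdac genes passed at 13 weeks, 5 lower and 1 higher, with a median difference of -0.76. The background for this and each family count below is 21.9% of all genes lower and 23.4% higher at 13 weeks. Hdac1, the class I enzyme of several corepressor complexes, was 7.21, 7.58 and 6.26 in controls and 8.55, 8.67 and 8.46 in mutants. It rose by 1.54 ± 0.30 log2 (SE, n = 3 per group, adjusted p = 0.00137), a 2.91-fold difference, and every mutant lay above every control. Hdac2, its close paralog, was 9.29, 8.78 and 10 in controls and 8.57, 8.51 and 8.23 in mutants. It fell by 0.92 ± 0.27 (adjusted p = 0.0152), and by 0.60 without control mouse 3 (adjusted p = 0.0341). The paralogs moved in opposite directions with no overlap of the groups in either, although Hdac2 controls at 9 weeks (8.44 to 8.63) overlapped the 13-week mutants.

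Hdac11, the only class IV deacetylase, had the largest fall of the family. It was 10.15, 10.17 and 11.46 in controls and 8.71, 8.68 and 9.00 in mutants at 13 weeks, a difference of -1.80 ± 0.30 (3.47-fold, adjusted p = 0.000498). At 9 weeks it was 9.99 to 10.24 in controls and 9.38 to 9.90 in mutants (-0.49, adjusted p = 0.386), again without overlap. A second Hdac11 probe set differed by -1.73 at 13 weeks. Control mouse 3 was the highest control of Hdac11 by over 1 log2, and without it the fall was 1.36.

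Hdac6, an X-linked and largely cytoplasmic deacetylase of tubulin, was 7.79, 7.70 and 7.88 in controls and 6.93, 7.01 and 7.09 in mutants at 13 weeks. It fell by 0.78 ± 0.17 (adjusted p = 0.00326), with a difference of -0.55 at 9 weeks (adjusted p = 0.0889). Hdac3, the catalytic subunit of the NCoR complexes, fell by 0.51 ± 0.19 (adjusted p = 0.0435), and Hdac5, a class IIa enzyme that shuttles between nucleus and cytoplasm, by 0.74 ± 0.25 (adjusted p = 0.0312). The Hdac5 mutants (7.47, 7.48 and 7.94) overlapped the controls (7.92, 8.21 and 8.97). The Hdac3 and Hdac5 differences missed the threshold without control mouse 3 (both -0.43, adjusted p = 0.0907 and 0.0792).

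Of the 5 sirtuins, 2 fell and 0 rose at 13 weeks. Sirt7, a nucleolar sirtuin linked to RNA polymerase I transcription, was 7.84, 8.05 and 8.27 in controls and 7.64, 7.41 and 7.17 in mutants. It fell by 0.65 ± 0.17 (adjusted p = 0.00787), against -0.07 at 9 weeks, where the groups overlapped. Sirt3, a mitochondrial deacetylase, was 9.38, 9.79 and 9.77 in controls and 9.14, 9.12 and 9.24 in mutants (-0.48 ± 0.18, adjusted p = 0.0459). The Sirt3 call ended under quantile normalization (-0.46, adjusted p = 0.0526) and without control mouse 3 (-0.42, adjusted p = 0.0864). Sirt1, a nuclear sirtuin, was 7.53, 7.19 and 7.11 in controls and 7.71, 7.79 and 7.65 in mutants, without overlap but not past the test (0.44 ± 0.34, adjusted p = 0.303). Sirt2, a cytoplasmic sirtuin rich in oligodendrocytes, was 10.49, 10.73 and 11.76 in controls and 11.12, 11.01 and 11.26 in mutants (0.14). Control mouse 3 was the highest of the 3 controls for Sirt2, and without it the difference was 0.52 and passed the test (adjusted p = 0.0282). Sirt4 differed by -0.06.

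The acetyltransferases moved in both directions, with 1 of 5 lower and 2 higher. Kat2a (GCN5), the acetyltransferase of the SAGA complex, had the smallest adjusted p of all members. It was 9.10, 9.21 and 9.45 in controls and 7.95, 7.92 and 8.32 in mutants at 13 weeks, a fall of 1.19 ± 0.17 (adjusted p = 0.000132). At 9 weeks the values were 9.66, 9.41 and 9.66 against 8.81, 9.10 and 9.07 (-0.58), so mutants lay below controls at both ages. Of 2 further probe sets, one differed by -1.65 and the other, with a mean level of 4.78, by -0.25.

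Kat2b (PCAF), the paralog of Kat2a, went the other way. It was 9.11, 9.01 and 7.45 in controls and 9.60, 9.72 and 9.76 in mutants at 13 weeks, a rise of 1.17 ± 0.34 (adjusted p = 0.0147). Control mouse 3 was far below the other controls, and without it the rise was 0.63 and still passed. A second Kat2b probe set differed by 0.48. Kat6a (MOZ), the catalytic subunit of a histone H3 acetyltransferase complex, was 7.63, 7.35 and 6.86 in controls and 7.83, 7.82 and 7.98 in mutants, a rise of 0.60 ± 0.19 (adjusted p = 0.0213). These 13-week mutants overlapped the Kat6a controls at 9 weeks (7.87, 7.86 and 8.08). Without control mouse 3 the rise of Kat6a was 0.39 (adjusted p = 0.0401), and under median centring it was 0.43 and did not pass (adjusted p = 0.0821). Kat7 (HBO1) was 8.57, 8.36 and 8.33 against 8.35, 8.20 and 8.19 (-0.17, adjusted p = 0.291), with overlap, and Kat6b differed by -0.27.

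**Figure D2:**
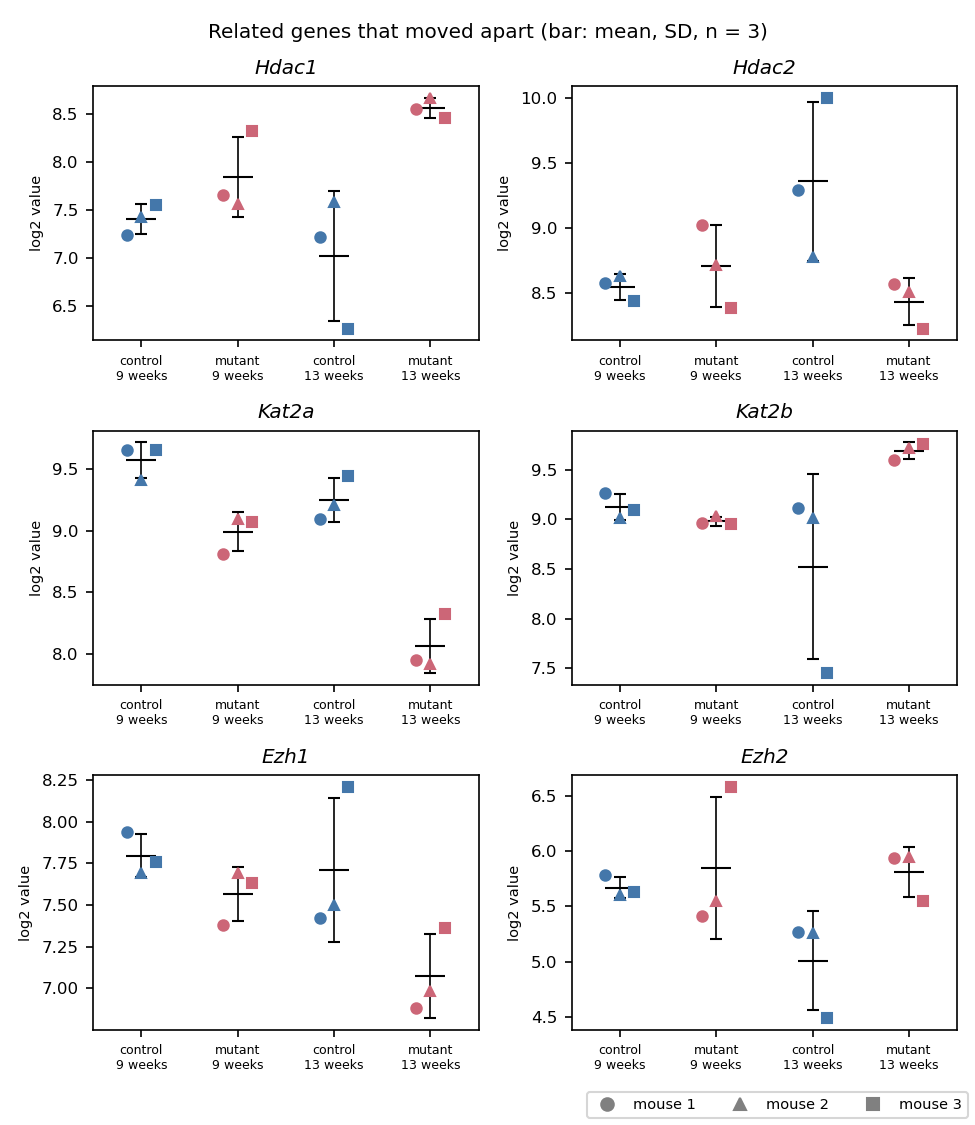
Log2 values (vertical axes) of 3 pairs of related genes in the 4 groups, with a symbol for each mouse and the mean and SD of 3 mice. At 13 weeks Hdac1, Kat2b and Ezh2 were higher in mutants and Hdac2, Kat2a and Ezh1 lower, and control mouse 3 (square) was the highest or the lowest control of that age in all 6.

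Of the 12 tested demethylases, 2 fell at 13 weeks and 0 rose, although 10 of the 12 differences were negative. Kdm4b, which removes methyl groups from lysine 9 of histone H3, was 7.29, 7.45 and 8.48 in controls and 5.11, 5.79 and 6.06 in mutants. It fell by 2.09 ± 0.33 (4.25-fold, adjusted p = 0.000303). At 9 weeks it was 7.96, 7.38 and 7.76 against 6.51, 6.98 and 7.01 (-0.87, adjusted p = 0.149), so mutants lay below controls at both ages. Kdm3a, another demethylase of lysine 9, was 9.58, 9.56 and 9.30 in controls and 8.81, 8.61 and 8.75 in mutants (-0.76 ± 0.14, adjusted p = 0.000906), and at 9 weeks it differed by -0.39 without overlap.

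The remaining demethylases did not pass with the chosen probe set. Kdm8 was 4.25, 4.30 and 5.45 in controls and 4.16, 4.20 and 4.06 in mutants (-0.53, adjusted p = 0.142), with control mouse 3 alone high. Kdm5b, a demethylase of lysine 4 of histone H3, was 8.18, 8.21 and 8.79 against 7.94, 7.93 and 7.86 (-0.48, adjusted p = 0.178), while its second probe set passed in a fit of all probe sets (-0.88, adjusted p = 0.0289). Kdm5b also passed with its probe sets averaged (-0.68, adjusted p = 0.034) and with sex as a term (-0.82, adjusted p = 0.0261). Kdm1a (LSD1) differed by -0.41 at 9 weeks, where its second probe set differed by -0.73 (adjusted p = 0.0391 in a fit of all probe sets), and by -0.18 at 13 weeks. Kdm5d, on the Y chromosome, was 2.33 to 2.75 in the 6 females and 4.54 to 6.28 in the 6 males. The ranges of the sexes overlapped for the 4 X-linked members, Kdm6a (5.94 to 6.94 in females and 4.54 to 6.34 in males), Hdac6 (6.93 to 8.23 and 7.56 to 8.34), Smarca1 (5.52 to 7.91 and 7.03 to 7.91) and Kdm5c (2.84 to 3.97 and 2.86 to 2.91). The Kdm5d difference of -1.70 at 13 weeks (adjusted p = 0.185) compares 3 females with 1 female and 2 males.

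The PRC2 methyltransferases also moved apart. Ezh1, the form found in cells that have stopped dividing, was 7.42, 7.5 and 8.21 in controls and 6.88, 6.98 and 7.36 in mutants at 13 weeks, a fall of 0.64 ± 0.22 (adjusted p = 0.0315). A second Ezh1 probe set differed by -0.47 at 13 weeks and did not pass (adjusted p = 0.111 in a fit of all probe sets). At 9 weeks it differed by 0.69, against -0.23 for the chosen one. Ezh2, the form of dividing cells, was 5.27, 5.26 and 4.49 in controls and 5.94, 5.95 and 5.55 in mutants, a rise of 0.81 ± 0.30 (adjusted p = 0.0452). Neither pair of groups overlapped, but the Ezh2 mutants lay within the range of all mice at 9 weeks (5.41 to 6.58). Without control mouse 3 the differences were -0.39 (adjusted p = 0.0767) and 0.55 (adjusted p = 0.144). Ezh2 also did not pass under quantile normalization (0.68, adjusted p = 0.0864). As given above, 5 of 6 proliferation markers rose at 13 weeks, and their part in the Ezh2 difference was not tested.

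Of the DNA methyltransferases, Dnmt3a, the de novo enzyme, was 7.63, 7.35 and 6.95 in controls and 6.34, 6.23 and 6.28 in mutants at 13 weeks. It fell by 1.03 ± 0.24 (adjusted p = 0.00466), while at 9 weeks the groups overlapped (-0.36). Its other probe sets over the filter differed by -1.55, -0.77 and -0.10, the last with a mean level of 3.64. Dnmt1, the maintenance enzyme, was 6.62, 6.31 and 6.68 against 6.41, 6.34 and 6.24, with overlap (-0.21, adjusted p = 0.351).

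The Smarc genes held the largest fall of all members. Of 12 tested, 4 fell and 2 rose at 13 weeks. Smarcd1 (BAF60A), one of 3 alternative BAF60 subunits, was 8.08, 8.35 and 10.40 in controls and 5.85, 5.97 and 6.51 in mutants. It fell by 2.83 ± 0.46 (7.13-fold, adjusted p = 0.000418), and by 2.10 without control mouse 3, whose value of 10.40 was far above the other controls. At 9 weeks Smarcd1 was 8.32, 8.32 and 8.56 against 7.27, 7.5 and 7.44, so each mutant was below each control (-1.0, adjusted p = 0.242).

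Smarcd3 (BAF60C), the subunit of the neuronal form of the complex, was 10.47, 10.87 and 12.27 in controls and 8.52, 8.90 and 9.59 in mutants at 13 weeks, a fall of 2.20 ± 0.41 (4.59-fold, adjusted p = 0.00101). Without control mouse 3 it fell by 1.67. At 9 weeks the groups overlapped (10.82, 10.78 and 10.72 against 10.13, 10.47 and 10.90). Smarcd2 (BAF60B), the third alternative, was 6.69, 6.72 and 6.14 in controls and 7.59, 7.5 and 7.17 in mutants, a rise of 0.90 ± 0.22 (adjusted p = 0.00581). A second Smarcd2 probe set differed by 0.20, and with the mean of its probe sets the difference was 0.24 and missed the threshold (adjusted p = 0.106).

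Among the core subunits, Smarcc1 (BAF155) was 8.15, 8.27 and 7.93 in controls and 7.12, 7.17 and 7.40 in mutants at 13 weeks, a fall of 0.89 ± 0.16 (adjusted p = 0.000888). A second Smarcc1 probe set differed by -0.53 at 13 weeks (adjusted p = 0.291) and by 0.19 at 9 weeks. Smarca4 (BRG1), one of the alternative ATPases of BAF, was 9.25, 9.34 and 10.55 in controls and 8.75, 8.80 and 8.76 in mutants, a fall of 0.94 ± 0.28 (adjusted p = 0.0165). Without control mouse 3 it fell by 0.53 (adjusted p = 0.00722), and a second probe set differed by -1.52. Smarca2 (BRM), the other ATPase, differed by -0.77, which missed the threshold (adjusted p = 0.0559). Its second probe set differed by -1.41 and passed in a fit of all probe sets (adjusted p = 0.00414). Smarca5 (SNF2H), the ATPase of the ISWI remodellers, was 8.23, 8.21 and 7.32 in controls and 8.88, 8.75 and 8.46 in mutants, a rise of 0.78 ± 0.23 (adjusted p = 0.0158). The rise was 0.48 without control mouse 3 (adjusted p = 0.0205), and with the probe sets of Smarca5 averaged the call ended (0.78, adjusted p = 0.084).

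**Figure D3:**
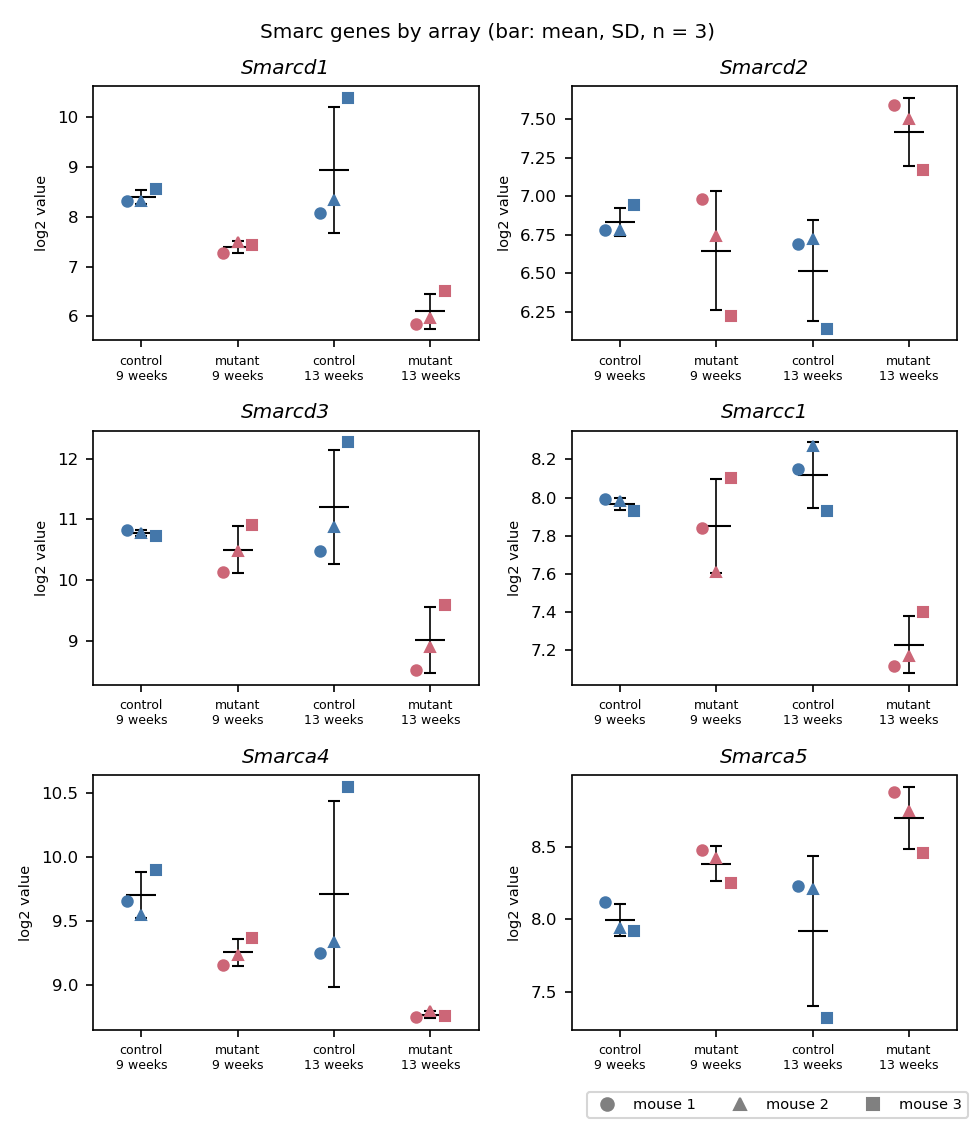
Log2 values (vertical axes) of 6 Smarc genes in the 4 groups, with a symbol for each mouse and the mean and SD of 3 mice. At 13 weeks mutants were lower for Smarcd1, Smarcd3, Smarcc1 and Smarca4 and higher for Smarcd2 and Smarca5, and Smarcd1 of control mouse 3 stood at 10.40.

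The sequence before the start of 3 Smarc genes is shown to set the largest fall (Smarcd1), a fall that differed between ages (Smarcc1) and the rise of Smarca5 side by side. Each is 250 bases, 5′ to 3′ on the gene's own strand (RefSeq, GRCm38.p6), and lies outside the annotated gene. Capitals mark matches to a GC box (GGGCGG, on either strand) and, in Smarcd1, to the E2F core (GCGGGAAA, on either strand). They span chr15:99702037-99702286 for Smarcd1 (plus strand), chr9:110131774-110132023 for Smarcc1 (plus strand) and chr8:80739460-80739709 for Smarca5 (minus strand).
Smarcd1: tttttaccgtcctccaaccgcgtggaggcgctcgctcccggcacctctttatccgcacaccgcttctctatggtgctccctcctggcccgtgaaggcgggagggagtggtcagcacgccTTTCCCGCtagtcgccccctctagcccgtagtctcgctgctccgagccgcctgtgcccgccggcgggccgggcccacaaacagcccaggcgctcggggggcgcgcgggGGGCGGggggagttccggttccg
Smarcc1: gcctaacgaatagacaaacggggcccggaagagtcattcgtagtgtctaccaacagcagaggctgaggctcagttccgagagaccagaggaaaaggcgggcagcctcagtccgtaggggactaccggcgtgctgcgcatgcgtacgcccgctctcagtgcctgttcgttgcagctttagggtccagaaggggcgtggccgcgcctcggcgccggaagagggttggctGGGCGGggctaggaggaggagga
Smarca5: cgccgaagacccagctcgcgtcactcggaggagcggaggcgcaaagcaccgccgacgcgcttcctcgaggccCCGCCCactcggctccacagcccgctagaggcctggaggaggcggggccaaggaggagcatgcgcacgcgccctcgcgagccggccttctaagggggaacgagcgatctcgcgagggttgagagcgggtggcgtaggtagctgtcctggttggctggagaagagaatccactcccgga

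The 3 windows hold 29, 21 and 29 CG pairs and a GC content of 71.2%, 63.6% and 69.2%. Promoter windows matched 46 of the 55 members, with 67 windows, since some genes have several starts. A GC box was in 59.7% of member windows against 32.7% of the 32851 windows of all genes. The share was 81.8% in the 22 windows of members that fell (16 genes). It was 58.6% in the 29 of tested members that did not pass (21 genes) and 40% in the 5 of members that rose (4 genes). These groups of windows also differed in median GC content (65.2%, 59.2% and 56.4%) and CG pairs (20, 17 and 6). Some windows of the same gene overlap, and the share was not taken for all genes that fell or rose. The median member window held 17 CG pairs, against 6 over all genes. CCAAT was in 31.3% against 33.8%, the E-box CACGTG in 7.46% against 6.02%, the gamma activated site TTCNNNGAA in 7.46% against 7.02% and the E2F core in 2.99% against 0.895%. The core of the interferon response element (ISRE), searched on both strands like the others, was in 0 of the 67 windows, against 2.98% of all. These are descriptions of letters in a window, with no test.

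Of the Chd remodellers, 2 of 5 fell and 0 rose at 13 weeks, and all 5 differences were negative. Chd4, the ATPase of the NuRD complex, was 8.45, 8.65 and 9.88 in controls and 8.05, 8.08 and 8.40 in mutants, a fall of 0.82 ± 0.31 (adjusted p = 0.0466). The fall of Chd4 was 0.37 without control mouse 3 (adjusted p = 0.0887). Other Chd4 probe sets differed at 13 weeks by -0.69 and -0.71 (adjusted p = 0.00826 and 0.141 in a fit of all probe sets), the last with a mean level of 3.65. At 9 weeks they differed by 0.20 and 0.093, against -0.43 for the chosen one. Chd8 was 7.66, 7.88 and 8.32 against 7.40, 7.29 and 7.54 (-0.54 ± 0.18, adjusted p = 0.0259), and without control mouse 3 differed by -0.36 (adjusted p = 0.0543). Chd1 was 4.37, 4.09 and 5.15 against 4.12, 4.0 and 3.99 with overlap (-0.50, adjusted p = 0.112). Chd6 was 7.16, 6.75 and 5.39 against 5.91, 6.29 and 5.87 at 13 weeks (-0.41, adjusted p = 0.354), where the low value of control mouse 3 lay below every mutant. At 9 weeks Chd6 was 7.52, 7.41 and 7.41 against 6.75, 6.64 and 6.90, without overlap.

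The change of the genotype difference between ages passed for 4 of the 49 members (8.16%, against 18.4% of all genes), 2 upward and 2 downward (12.1% and 6.38% of all genes). The change was downward for Smarcd3 (-1.93, adjusted p = 0.0367) and Smarcc1 (-0.77, adjusted p = 0.035), whose differences at 9 weeks were -0.27 and -0.12. It was upward for Smarcd2 (1.09, adjusted p = 0.0309) and Kat6a (0.95, adjusted p = 0.026), which differed by -0.19 and -0.36 at 9 weeks, neither past the test, and by 0.90 and 0.60 at 13 weeks. From 9 to 13 weeks Kat6a moved by -0.66 in controls and 0.30 in mutants, neither past limma's test (adjusted p = 0.142 and 0.252). In fits that left out 1 array, between 0 and 8 members passed, against 13% to 23.6% of all genes. The count was 0 without control mouse 3 at 9 weeks or mutant mouse 1 or 2 at 13 weeks, 1 or 2 without any other mouse of 9 weeks, and 7, 8 and 7 without control mouse 1, 2 and 3 at 13 weeks. Each of the 4 lost its call in at least 4 of the 12 fits. With sex as a term, Smarcc1 (-0.69, adjusted p = 0.0712) and Smarcd2 (1.07, adjusted p = 0.0521) did not pass, nor did they with probe sets averaged (-0.74 and 0.37, adjusted p = 0.119 and 0.13). Without a filter Smarcd2 and Smarcd3 did not pass (adjusted p = 0.0509 and 0.086), and under median centring Kat6a did not (0.81, adjusted p = 0.0547). For Hdac11, Kdm4b and Smarcd1, with large falls at 13 weeks, the change was -1.31, -1.22 and -1.84 and did not pass (adjusted p = 0.0527, 0.0908 and 0.0743).

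Age was also compared within each genotype, using arrays that the genotype comparisons share. In controls 0 of the 49 members differed between 13 and 9 weeks by limma's test, against 0.145% of all genes (0.0848% higher and 0.0606% lower), and 11 had an unadjusted p under 0.05 (22.4%, against 17.3%). In mutants 15 members passed, 14 lower and 1 higher at 13 weeks (30.6%, against 32.7% of all genes, 16.6% lower and 16.1% higher). Lower values included Kat2a (-0.93, adjusted p = 0.00118), Kdm3a (-0.64, adjusted p = 0.00378), Dnmt3a (-1.04, adjusted p = 0.00622) and Kat7 (-0.54, adjusted p = 0.00723), and Smarcd2 was higher (0.77, adjusted p = 0.0187). Leaving out 1 array gave 5 to 23 calls, with 5 and 7 without mutant mouse 1 and 2 at 13 weeks, 9 without mutant mouse 2 at 9 weeks. The 23 came without control mouse 3 at 13 weeks, which is no part of this comparison. The share of all genes that passed for age was not taken in the fits that left out an array.

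Of the 24 members called at 13 weeks, 14 kept their call whichever of the 12 arrays was left out. These were Hdac1, Hdac11, Hdac6, Sirt7, Kat2a, Kat2b, Kdm3a, Kdm4b, Dnmt3a, Smarca4, Smarcc1, Smarcd1, Smarcd2 and Smarcd3. The other 10 were Hdac2, Hdac3, Hdac5, Sirt3, Kat6a, Ezh1, Ezh2, Smarca5, Chd4 and Chd8, whose highest adjusted p in those fits was between 0.0538 and 0.144. Without control mouse 3 at 13 weeks, 23 members passed (7 higher and 16 lower), against 47.8% of all genes, and 17 of the 23 were among the 24. The calls of Hdac3, Hdac5, Sirt3, Ezh1, Ezh2, Chd4 and Chd8 were lost, and those of Sirt2 (0.52), Kat6b (-0.56), Smarca1 (-0.83), Smarca2 (-0.93), Smarce1 (0.40) and Chd6 (-0.93) were gained. With all arrays, a second Smarce1 probe set differed the other way at 13 weeks (-0.33, adjusted p = 0.187 in a fit of all probe sets), and by 0.17 at 9 weeks. Without mutant mouse 1 at 13 weeks 8 calls were lost (Hdac3, Hdac5, Sirt3, Ezh1, Ezh2, Smarca5, Chd4 and Chd8), leaving 16, and without mutant mouse 2 the same 8 were lost. Without mutant mouse 3 at 13 weeks Hdac2 (-0.82, adjusted p = 0.0538), Kat6a (0.55, adjusted p = 0.0609), Hdac3, Sirt3 and Chd4 lost theirs. Hdac3, Sirt3, Chd4 and Ezh2 also lost their calls without any 1 of the 9-week controls, which enter their comparison only through the shared spread, with adjusted p between 0.0527 and 0.0627. A term for sex ended the calls of Hdac3 and Sirt3. With only the 13-week groups in the fit 12 calls were lost, those of Hdac2, Hdac3, Hdac5, Sirt3, Kat2b, Kat6a, Ezh1, Ezh2, Smarca4, Smarca5, Chd4 and Chd8 (adjusted p between 0.0521 and 0.137).

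**Figure D4:**
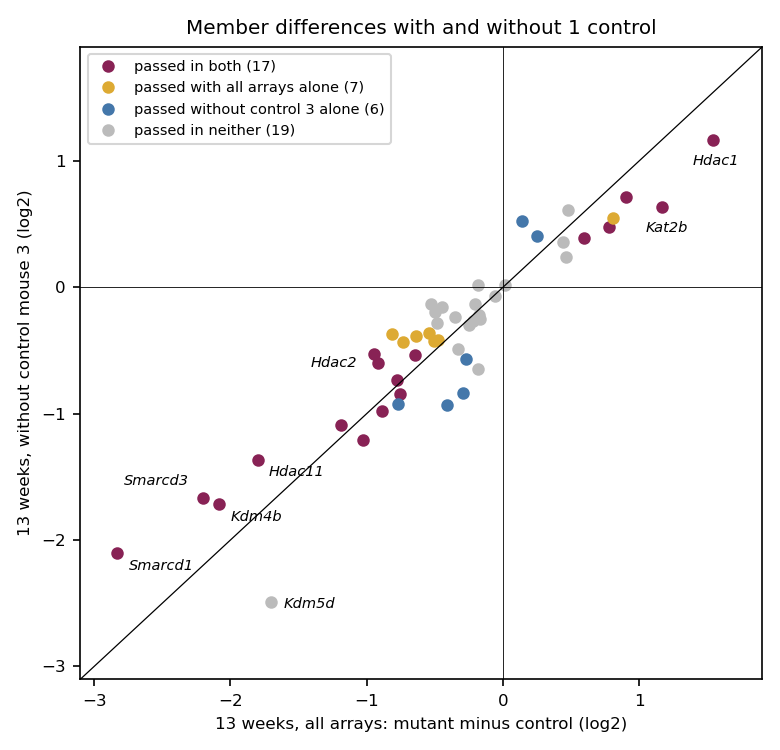
Difference of mutant minus control at 13 weeks (log2) for the 49 members with all arrays (horizontal axis) and without control mouse 3 (vertical axis), with the line of equality. In both fits 17 members passed, 7 passed with all arrays alone, 6 without control mouse 3 alone and 19 in neither. Control mouse 3 was the only female control at 13 weeks, and all 3 mutants were female.

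Genes that work with the members were taken from 7 lists of partners. Of all genes tested 23.4% rose and 21.9% fell at 13 weeks, which is the background for the count of each list. No list was tested as a set. Of 12 tested BAF partners 4 rose and 3 fell at 13 weeks. Actl6b (BAF53B), an actin-like subunit of the neuronal complex, fell by 2.16 ± 0.29 and Dpf1 (BAF45B), another neuronal subunit, by 1.57 ± 0.21, while Ss18 rose by 1.08 ± 0.21 (adjusted p = 9.22e-05, 9.11e-05 and 0.00151). Actl6a, the form of dividing precursors, rose by 0.84 (adjusted p = 0.00306), and was picked out after its value was seen. Of 18 Polycomb partners 1 rose and 5 fell, among them Cbx6 (-1.63), Cbx8 (-1.02) and Ring1 (-0.91). Of 15 corepressor partners of the deacetylases 5 rose and 2 fell, and the repressor of neuronal genes Rest (1.82), the Sin3 subunit Sap30 (2.12) and the NuRD subunit Gatad2a (0.84) were among the rises. Of 11 other histone methyltransferases 0 rose and 2 fell, Kmt2a (-0.82) and Ehmt2 (-1.02). Of 6 further acetyltransferases 3 fell, Naa60 (-0.97), Ncoa1 (-0.75) and Crebbp (-0.66), and 0 rose. Of 12 other remodellers and demethylases 3 fell, Ruvbl1 (-0.90), Bptf (-0.61) and Riox1 (-0.62), and 0 rose, and the single DNA methylation reader tested, Mbd1, rose by 1.57.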

How the data were processed

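Total RNA of the striatum of 12 mice was hybridised to 1 array each, and the deposited values are GCRMA signals on a log2 scale, per the labels (version not given). The table holds 22690 probe sets. Leaving out 64 controls, 20380 had 1 symbol in GEO's platform annotation, 691 several and 1555 none, and only the first were used. Array medians lay between 5.29 and 5.52, and the values were used without further normalization. Genes above their array's 40th percentile (3.51 to 3.81) in at least 3 arrays were kept, 8256 of 12393.

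All arrays were fitted together with limma 3.58.1 in R 4.3.3 (lmFit and eBayes, 1 coefficient per group, 8 residual degrees of freedom), p-values were two-sided, adjusted by the Benjamini-Hochberg method over all genes tested, and SE is limma's. The labels call the arrays biological replicates. The fit was tested on simulated data. The members, partner lists and tests were chosen with earlier results of these data known. Named genes were those that passed at 9 weeks or for the change between ages, up to 4 members per family with the smallest p at 13 weeks, and up to 3 genes per partner list. Every member may be named. Alternatives tried were array weights, quantile normalization, centring on the median, 2 other filters, a gene's probe sets averaged, another prior, only the groups compared, sex as a term, the replicate number as a block, other thresholds and each array left out. Promoter sequences are RefSeq's (GRCm38.p6), searched over 250 bases before the start. Protein sequences were not used here.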

Additional observations from a re-analysis of the deposited data

Results flagged for a closer look

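The genotype difference of 4 members changed between 9 and 13 weeks by limma's interaction test. The change was 0.95 for Kat6a, -0.77 for Smarcc1, 1.09 for Smarcd2 and -1.93 for Smarcd3 (adjusted p = 0.026, 0.035, 0.0309 and 0.0367). Each lost its call in at least 4 of the 12 fits that left out an array, Smarcc1 and Smarcd2 did not pass with sex as a term (adjusted p = 0.0712 and 0.0521), and the second Smarcd2 probe set differed by 0.20 at 13 weeks. From 9 to 13 weeks Kat6a moved by -0.66 in controls and 0.30 in mutants, neither past the test.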

How the results depend on the processing

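Under array weights, limma's default estimate stopped before it converged, with a weight of 23.7 for mutant mouse 2 at 9 weeks and 0.0587 for control mouse 3 at 13 weeks. It gave 22 calls at 9 weeks, 38 at 13 weeks (11 higher), 30 for the change between ages, 16 for age in controls and 40 for age in mutants. Of all genes it called 46.4% at 9 weeks, 66.6% at 13 weeks and 52.1% for the change. For age, the share of all genes was not taken under this or any other alternative. The age counts in this paragraph therefore have no background beside them. A gene-by-gene estimate, added after those counts had been seen, gave 15, 35 (9 higher), 18, 1 and 37. Of all genes the gene-by-gene estimate called 33.4% at 9 weeks, 58.9% at 13 weeks and 40.5% for the change. With only the groups compared there were 4 calls at 9 weeks and 12 at 13 weeks (2 higher, 10 lower), against 12.7% and 34.3% of all genes. An adjusted p under 0.01 gave 12 at 13 weeks (2 higher, 10 lower), 0 for the change between ages and 4 for age in mutants, and one under 0.10 gave 3 at 9 weeks and 11 for the change. Of all genes 31.3% passed under 0.01 at 13 weeks and 9.24% for the change. Under 0.10 the shares of all genes were 10% at 9 weeks and 25.6% for the change. For the change, no filter gave 2 (11.6% of all genes), with Smarcd2 and Smarcd3 lost, and a term for sex 7 (21% of all genes), with Smarcc1 and Smarcd2 lost. Without mutant mouse 3 at 9 weeks and control mouse 1 at 13 weeks together, chosen after seeing the data, 2 passed at 9 weeks and 7 for the change (2.35% and 19.8% of all genes). Leaving out 1 array gave 0 to 10 calls at 9 weeks, 16 to 24 at 13 weeks (4 to 7 higher, 12 to 18 lower), 0 to 8 for the change, 0 for age in controls in each fit and 5 to 23 for age in mutants. Of all genes these fits called 0.751% to 16.4% at 9 weeks, 35.2% to 47.8% at 13 weeks and 13% to 23.6% for the change. The causes were not tested.

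The replicate number as a block gave 25 calls at 13 weeks (46.5% of all genes), with Ezh2 lost, and 5 for the change between ages (19.5% of all genes), with Smarcc1 lost. It ended no other call of those counts. Same-numbered arrays had deviations correlated at -0.07 to 0.18, and 3 of 6 controls paired best with their own number, so the numbers were not taken to pair the mice.

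Among the named members, 30 values of 12 differences changed sign under an alternative, and none of these values passed the test. At 9 weeks array weights gave -0.073 for Sirt2, 0.17 for Kdm5b and -0.12 for Ezh2 (gene-by-gene estimate -0.076, 0.13 and -0.098), the mean of probe sets 0.23 for Ezh1 and 0.038 for Smarcc1, and median centring -0.0083 for Dnmt1. Without the pair of arrays left out together, Sirt3 differed by -0.022, Sirt1 by 0.12, Sirt2 by -0.14, Kdm5b by 0.17, Ezh2 by -0.19 and Smarcd2 by 0.027. At 13 weeks Sirt2 differed by -0.027 with median centring, -0.039 with sex as a term and -0.12 without that pair, and Dnmt1 by 0.0097 with array weights. Leaving out 1 array, the difference at 9 weeks was -0.022 to 0.28 for Sirt3, -0.71 to 0.12 for Sirt1, -0.14 to 0.15 for Sirt2, -0.012 to 0.26 for Kdm8, -0.36 to 0.17 for Kdm5b, -0.19 to 0.40 for Ezh2, -0.11 to 0.14 for Dnmt1, -0.24 to 0.0033 for Smarcc1 and -0.35 to 0.027 for Smarcd2, and that of Sirt2 at 13 weeks -0.12 to 0.52.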
